A study of Homo sapiens with 6 samples.

Results

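The 10 genes followed here were chosen by name for what they encode: the chemokines CXCL8, CXCL1, CXCL2 and CCL2, the cytokines IL6, IL11, LIF and CSF1, the prostaglandin-forming enzyme PTGS2, and TNFAIP3, an inhibitor of NF-κB signalling. Earlier results of these data were known at that choice, so the members' counts set beside all tested genes are descriptive only. All 10 were found among the 35750 genes of the deposited table, 1 row each. RNA was sequenced from T98G, a human glioblastoma cell line grown in medium with fetal bovine serum, in 2 groups of 3 libraries: shControl, with a control short hairpin RNA, and shSLC1A5, with a short hairpin RNA against SLC1A5, a sodium-dependent transporter that brings glutamine into cells. The series asks how depleting SLC1A5 changes gene expression. The labels name no hairpin sequence, clone, time after transduction or separate culture, so the p-values here reflect library-to-library spread that may be technical only.

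Chemokines are small secreted proteins that draw leukocytes along a gradient: CXCL8, CXCL1 and CXCL2 attract neutrophils through the receptors CXCR1 and CXCR2, and CCL2 attracts monocytes through CCR2. IL6, IL11 and LIF each bind a receptor of their own and then signal through the shared subunit gp130, encoded by IL6ST, to JAK kinases and STAT3, while CSF1 sustains macrophages and microglia through CSF1R. Most of these genes are known targets of NF-κB and AP-1 with short-lived messages, and glioblastoma cells are known to secrete several of them.

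Total counts ran from 59327548 to 70802167 per library. SLC1A5 itself stood at 95.8 ± 1.15 FPKM (SD, n = 3) in shControl and at 87.9 ± 0.407 in shSLC1A5. FPKM are fragments scaled to gene length and library size. The targeted transcript thus differed by a log2 fold change of -0.14 (SE 0.018, edgeR adjusted p = 1.93e-04), or -0.34 in a fit that corrects for the GC content and length of transcripts (the GC-corrected fit), and every direction here is that of the libraries labelled shSLC1A5. Of the glial and glioma markers, VIM had 131995 to 143021 counts, CD44 139510 to 153137 and OLIG2 160 to 208. CHI3L1 had 28 to 57 counts in shControl and 137 to 188 in shSLC1A5. NES had 32 to 45 and 72 to 92, and CDKN2A 6 to 13 and 16 to 34. GFAP had 8 to 28 counts, SOX2 7 to 10 in shControl and 0 in shSLC1A5, and S100B and FABP7 0 to 3 each, so of the 10 markers only VIM and CD44 were abundant.

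Transcripts of these secreted factors moved in opposite directions. CXCL8, IL6, IL11 and TNFAIP3 fell in the libraries labelled shSLC1A5 and CSF1 and PTGS2 rose, while LIF and CCL2 did not pass the test and CXCL1 and CXCL2 were near 0 in both groups. Of the 8 members averaging 1 FPKM or more across the 6 libraries, 6 passed an adjusted p under 0.05 (edgeR quasi-likelihood test on counts, adjusted by Benjamini-Hochberg over all 11841 genes tested), where 39.2% of all tested genes did. Of these, 4 were lower and 2 higher, against 19.0% and 20.2% of all tested genes. The median log2 fold change of the 8 was -0.17 against -0.01 for all tested genes, and the median of the absolute values was 0.39 against 0.13. The FPKM of the 2 groups did not overlap for the same 6 members, as for 49.6% of tested genes (27.3% higher, 22.3% lower). DESeq2 called 6 members as well, 4 lower and 2 higher, where it called 42.2% of all tested genes (21.8% higher, 20.4% lower). A called change of at least 0.5 on the log2 scale was found for 3 members, IL11, CSF1 and PTGS2, and for 4.49% of tested genes. Counts summed over all 10 members came to 1022, 1032 and 1044 CPM (counts scaled to the library's total) in shControl and 1113, 1120 and 1112 in shSLC1A5, the larger part of them from CSF1, IL6 and CXCL8.

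**Figure D1:**
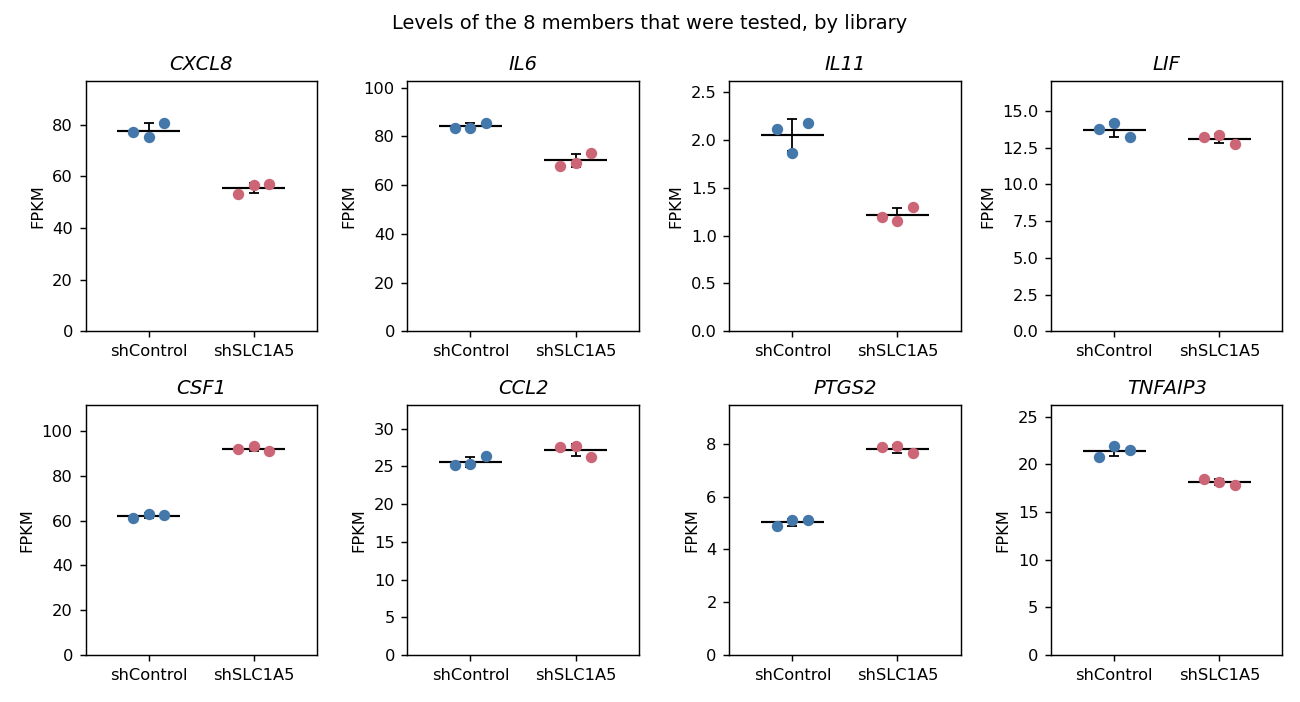
FPKM of the 8 tested members in each library (points), with the group mean (line) and SD (bar, n = 3). CXCL8, IL6, IL11 and TNFAIP3 are lower and CSF1 and PTGS2 higher in all 3 libraries labelled shSLC1A5, and the groups overlap for LIF and CCL2.

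Among the chemokines, CXCL8 (interleukin 8; ENSG00000169429, chr4:73740541-73743716, GRCh38, plus strand) stood at 77.1, 75.4 and 80.8 FPKM in shControl and at 53.3, 56.5 and 56.9 in shSLC1A5. Every shSLC1A5 value lay below every shControl value, and the means were 77.8 ± 2.76 and 55.6 ± 2.01 FPKM (SD, n = 3). The log2 fold change was -0.50 (SE 0.032, edgeR adjusted p = 1.04e-06), a drop to a level 29.2% lower (95% confidence interval 25.6% to 32.6%). CCL2 (ENSG00000108691, chr17:34255218-34257203, plus strand) stood at 25.1, 25.3 and 26.4 FPKM in shControl and at 27.6, 27.7 and 26.2 in shSLC1A5. The lowest shSLC1A5 library fell among the shControl libraries, and the log2 fold change of 0.07 had an interval of -0.02 to 0.16 (edgeR adjusted p = 0.182). In these data, then, the chemokine for neutrophils and the chemokine for monocytes did not share a direction that passed the test.

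CXCL1 (ENSG00000163739, chr4:73869393-73871308, plus strand) and CXCL2 (ENSG00000081041, chr4:74097040-74099195, minus strand) are close relatives of CXCL8 in the same cluster of chromosome 4, and both were below the expression minimum. CXCL1 was listed at 0 counts in 5 libraries and at 11 in shSLC1A5 replicate 1. CXCL2 was listed at 13 counts in shControl replicate 2, at 4 in shSLC1A5 replicate 2 and at 0 in the others. A count of 0 allows up to 3 counts, or 0.042 to 0.051 CPM in these libraries, for counting error alone. CXCL3, their near copy and no member, had 1417 to 1568 counts in shControl and 1279 to 1472 in shSLC1A5. It was 18.9% lower in shSLC1A5 (log2 fold change -0.30, edgeR adjusted p = 0.00245). CXCL1, CXCL2 and CXCL3 are alike enough to share reads, and the rule for such reads is not stated, so the split of counts between them is uncertain.

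**Figure D2:**
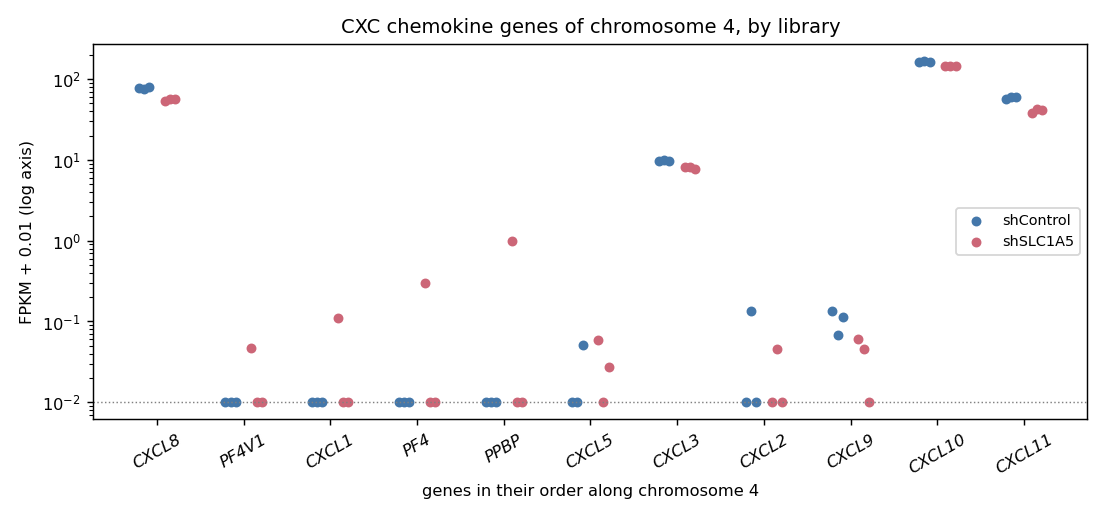
FPKM plus 0.01 (log axis) of 11 CXC chemokine genes in their order along chromosome 4, with a point per library and the dotted line at a listed value of 0. CXCL8, CXCL3, CXCL10 and CXCL11 are expressed and lower in all 3 shSLC1A5 libraries, and CXCL1, PF4 and PPBP have counts in shSLC1A5 replicate 1 alone.

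The 3 CXC promoters are shown because CXCL8 was expressed at a high level in cells where CXCL1 and CXCL2 were near 0, and they hold the same core. Each stretch is the 140 bases before the RefSeq start site (GRCh38.p14, 5′ to 3′ on the gene's strand), at chr4:73740429-73740568 for CXCL8, chr4:73869253-73869392 for CXCL1 and chr4:74099196-74099335 for CXCL2. Capitals mark matches, on either strand, to the NF-κB consensus, to its shorter relative GGANTTTCC, to the AP-1 site TGANTCA and to the TATA box TATAAA.
CXCL8: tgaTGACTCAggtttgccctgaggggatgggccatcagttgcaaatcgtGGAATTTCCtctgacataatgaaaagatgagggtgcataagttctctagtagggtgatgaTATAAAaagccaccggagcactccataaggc
CXCL1: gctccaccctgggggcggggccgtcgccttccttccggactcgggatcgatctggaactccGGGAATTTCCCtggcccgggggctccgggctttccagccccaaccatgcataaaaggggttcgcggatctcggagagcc
CXCL2: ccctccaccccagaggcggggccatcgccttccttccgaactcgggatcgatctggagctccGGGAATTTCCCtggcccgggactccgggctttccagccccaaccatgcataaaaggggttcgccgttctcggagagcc
All 3 hold GGAATTTCC, 91 bases before the start in CXCL8, 78 in CXCL1 and 77 in CXCL2, where the match to the NF-κB consensus overlaps it. CXCL8 alone of the 3 also holds TGACTCA and TATAAA in this stretch. CXCL1 and CXCL2 hold the near match CATAAA there, which the search for exact letters does not mark. Over the 35116 RefSeq promoters of the same 300-base window (250 before and 50 after the start), 5.91% hold the NF-κB consensus, 1.64% GGANTTTCC, 7.71% TGANTCA and 11.5% TATAAA. These are matches of letters, and no binding was measured.

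Chemokines other than the members had 9 of 23 listed genes tested, of which 5 fell and 2 rose (39.2% of all tested genes were called). Their median log2 fold change was -0.20, and 5 fell and 1 rose in the GC-corrected fit and its centred form. Over all tested genes, the GC-corrected fit called 12.3% higher and 13.9% lower, and its centred form 8.92% and 19.7%. These shares apply to every list below. CXCL11, an interferon-induced attractant of T cells that also lies on chromosome 4, fell from 58.3 ± 1.81 to 40.9 ± 2.30 FPKM (log2 fold change -0.53, edgeR adjusted p = 4.19e-06). CCL5 (RANTES), the most abundant chemokine of the list, stood at 364, 364 and 377 FPKM in shControl and 315, 319 and 319 in shSLC1A5, a log2 fold change of -0.23 (edgeR adjusted p = 3.92e-06). CCL3, a macrophage inflammatory protein, fell by 0.32 on the log2 scale. CCL4, its neighbour, rose by 0.46 at an edgeR adjusted p of 0.0329, a call that was lost by leaving out any of the 6 libraries but shSLC1A5 replicate 3 (adjusted p 0.0593 to 0.108). CX3CL1, the other gene of the list that rose, was higher by 0.21 on the log2 scale (edgeR adjusted p = 0.00462). Its call was kept with any library left out (adjusted p up to 0.0162) and lost in the GC-corrected fit (0.11, adjusted p = 0.0923). Chemokines other than CXCL8 were thus also mostly lower where they passed the test.

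The cytokines that signal through gp130 did not move alike in size. IL6 (ENSG00000136244, chr7:22725884-22732002, plus strand), the most abundant member in shControl, stood at 83.6, 83.6 and 85.7 FPKM there and at 67.8, 69.3 and 73.3 in shSLC1A5. The groups did not overlap, and the means were 84.3 ± 1.17 and 70.2 ± 2.84 FPKM (SD, n = 3). The log2 fold change was -0.28 (SE 0.029, edgeR adjusted p = 3.58e-05), a level 17.5% lower (95% confidence interval 13.7% to 21.1%). IL11 (ENSG00000095752, chr19:55364382-55370463, minus strand), a cytokine of platelet formation and of fibrosis, was the least abundant tested member. It stood at 2.12, 1.87 and 2.18 FPKM in shControl and at 1.19, 1.15 and 1.30 in shSLC1A5, with no overlap. Its log2 fold change of -0.77 (SE 0.14, edgeR adjusted p = 0.00148) was the largest fall among the members, 41.2% with an interval of 27.2% to 52.5%, and rested on 236 to 408 counts per library. LIF (ENSG00000128342, chr22:30240453-30246759, minus strand), which keeps stem cells undifferentiated, stood at 13.8, 14.2 and 13.2 FPKM in shControl and at 13.3, 13.3 and 12.8 in shSLC1A5. Its groups overlapped, and the log2 fold change was -0.08 with an interval of -0.17 to 0.01 (edgeR adjusted p = 0.157).

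The promoters of IL6 (chr7:22727060-22727199) and IL11 (chr19:55370464-55370603) are shown, with the same capitals, because both genes fell and hold different sites.
IL6: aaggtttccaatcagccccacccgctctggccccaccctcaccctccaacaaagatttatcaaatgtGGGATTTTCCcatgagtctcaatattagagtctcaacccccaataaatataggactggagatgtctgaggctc
IL11: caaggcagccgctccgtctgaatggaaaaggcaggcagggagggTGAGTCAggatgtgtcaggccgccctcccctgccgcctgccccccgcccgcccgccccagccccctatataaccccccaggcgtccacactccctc
IL6 holds GGGATTTTCC 73 bases before the start and no TGANTCA in this stretch. IL11 holds TGAGTCA 96 bases before the start and neither NF-κB motif.

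CSF1 (ENSG00000184371, chr1:109910242-109930992, plus strand), the growth factor of macrophages, stood at 61.0, 62.9 and 62.7 FPKM in shControl and at 91.9, 93.1 and 91.3 in shSLC1A5. The groups were far apart relative to their spread, with means of 62.2 ± 1.01 and 92.1 ± 0.942 FPKM (SD, n = 3). The log2 fold change was 0.55 (SE 0.018, edgeR adjusted p = 6.52e-09), a level 46.7% higher (95% confidence interval 42.7% to 50.8%). CSF1 was the third most abundant member in shControl, after IL6 and CXCL8, and the most abundant in shSLC1A5, while the order of the other tested members was the same in both groups. No tested member overlapped its neighbour in that order within a group.

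PTGS2 (COX-2; ENSG00000073756, chr1:186671791-186680423, minus strand) catalyses the committed step from arachidonic acid to prostaglandins and, like CXCL8 and IL6, is a classic gene of inflammation. It stood at 4.89, 5.13 and 5.10 FPKM in shControl and at 7.90, 7.91 and 7.65 in shSLC1A5, the opposite direction to CXCL8 and IL6, without overlap. Means were 5.04 ± 0.134 and 7.82 ± 0.150 FPKM (SD, n = 3), the log2 fold change was 0.62 (SE 0.043, edgeR adjusted p = 1.75e-06), and the level was 53.8% higher (95% confidence interval 43.9% to 64.3%). PACERR, a long noncoding RNA that lies within 5 kb of PTGS2 on the other strand, had 4 to 19 counts in shControl and 22 to 40 in shSLC1A5 and was below the expression minimum. TNFAIP3 (A20; ENSG00000118503, chr6:137867214-137883312, plus strand) edits ubiquitin chains to shut off NF-κB signalling and is itself induced by it. It stood at 20.8, 21.9 and 21.6 FPKM in shControl and at 18.4, 18.1 and 17.8 in shSLC1A5, all of them lower. The log2 fold change was -0.25 (SE 0.032, edgeR adjusted p = 1.26e-04), a level 16.2% lower (95% confidence interval of the log2 fold change -0.33 to -0.18).

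The promoters of PTGS2 (chr1:186680424-186680563) and TNFAIP3 (chr6:137867119-137867258) are shown, with the same capitals, because the genes moved in opposite directions.
PTGS2: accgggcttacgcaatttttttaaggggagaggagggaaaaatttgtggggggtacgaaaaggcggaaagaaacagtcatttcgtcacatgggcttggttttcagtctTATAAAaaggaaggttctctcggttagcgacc
TNFAIP3: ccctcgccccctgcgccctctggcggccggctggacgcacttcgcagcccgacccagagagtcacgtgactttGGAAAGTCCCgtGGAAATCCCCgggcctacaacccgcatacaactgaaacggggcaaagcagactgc
TNFAIP3 holds 2 matches to the NF-κB consensus on the opposite strand, GGAAAGTCCC and GGAAATCCCC, 67 and 55 bases before the start. PTGS2 holds TATAAA 32 bases before the start and neither NF-κB motif in this window. RefSeq promoters were matched for 7 of the 10 members.

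Exact two-sided permutation tests of FPKM gave p = 0.1 for each of the 6 members whose groups did not overlap, the smallest value that 3 libraries against 3 allow, and p = 0.3 for LIF and 0.2 for CCL2. Across genes, which are not independent replicates, fold changes followed transcript GC content with a Spearman correlation of 0.49, and the tested members span 33.4% GC in CXCL8 to 59.5% in CSF1. In the GC-corrected fit all 8 tested members passed the threshold, 3 higher and 5 lower, where 26.1% of all tested genes passed (12.3% higher, 13.9% lower). CXCL8 moved to -0.39, IL6 to -0.19 and CSF1 to 0.38 on the log2 scale, IL11 to -0.83, PTGS2 to 0.69 and TNFAIP3 to -0.24. LIF came to -0.19 (edgeR adjusted p = 0.00546) and CCL2 to 0.17 (edgeR adjusted p = 0.0075), so whether these 2 were called depended on the correction. How the correction is centred moved the split over all genes: of the genes called, 51.6% were higher without a correction, 46.9% in the GC-corrected fit, and 31.1% in a form that shifts each library's corrections to a median of 0. That centred form also called all 8 members in the same directions (28.7% of all tested genes were called, 8.92% higher and 19.7% lower), with log2 fold changes of -0.42 for CXCL8, -0.22 for IL6, -0.87 for IL11, -0.27 for TNFAIP3, 0.35 for CSF1, 0.66 for PTGS2, -0.23 for LIF and 0.14 for CCL2.

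**Figure D3:**
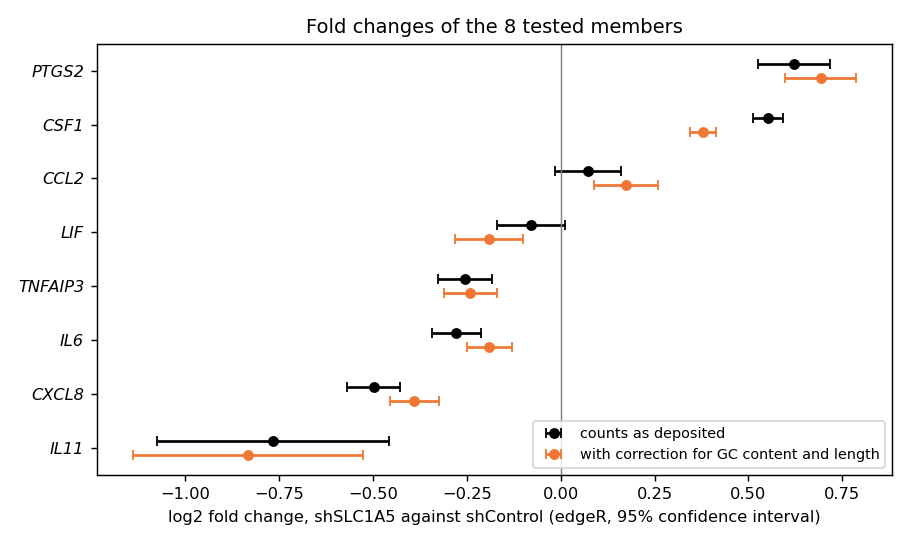
Log2 fold changes of the 8 tested members by edgeR, with 95% confidence intervals, from the counts as deposited (black) and from the GC-corrected fit (orange). Directions are shared by both fits for every member, and the intervals of LIF and CCL2 include 0 in the uncorrected fit alone.

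Annotated genes on the opposite strand lie across 3 members, and without a known strand setting their reads cannot be told apart. The genes' own counts were small beside the members: 54 to 116 for AL357060.1 across TNFAIP3 (6714 to 7766 counts), 44 to 74 for AC004264.1 across LIF (3407 to 3883 in shControl and 3717 to 4109 in shSLC1A5), and 58 to 106 for AC073072.1 and 25 to 79 for STEAP1B across IL6 (10883 to 12395 counts).

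Messages of many cytokines carry AU-rich elements in the 3′ UTR, runs of ATTTA that proteins such as ZFP36 bind to speed their decay. In GENCODE 29, PTGS2 held 22 ATTTA in 2562 bases, a number reached by 0.0626% of 3′ UTRs of like length, IL6 6 in 429 bases (0.419%) and CXCL8 9 in 1252 bases (2.54%). IL11 held 9 in 1618 bases (6.58%), TNFAIP3 5 in 1992 (45.1%), LIF 7 in 3204 (52.0%), CSF1 4 in 2154 (61.4%) and CCL2 1 in 376 (44.0%). Each share counts the gene's own 3′ UTR, and no other 3′ UTR of like length reached the number of PTGS2. The densest stretch of 30 bases is shown for the 3 members that fell and the 1 that rose with the most such elements per length, with ATTTA in capitals. They lie at chr4:73743111-73743140 for CXCL8, chr7:22731704-22731733 for IL6, chr19:55365943-55365972 for IL11 and chr1:186674317-186674346 for PTGS2 (GRCh38, each on its gene's strand).
CXCL8: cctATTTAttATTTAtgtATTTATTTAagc
IL6: tatttttaATTTAttaatATTTAaatatgt
IL11: ccagatcttATTTATTTATTTAtttcagta
PTGS2: aatgatcatATTTATTTATTTAtatgaacc
Genes rich in these elements thus moved both ways, CXCL8, IL6 and IL11 lower and PTGS2 higher. Of 20 tested RNA-binding proteins and regulators of AU-rich elements, 2 rose and 2 fell (20.2% and 19.0% of all tested genes). Their median log2 fold change was -0.04. It was 0.02 in the GC-corrected fit (2 higher, 2 lower) and -0.02 in its centred form (1 higher, 4 lower). MAPK11, a p38 kinase, and KHSRP, a decay factor, had log2 fold changes of 0.31 and 0.20, and both lost the call in the GC-corrected fit (0.08 and 0.05). PABPC1, the poly(A) binding protein, fell by 0.13, and RC3H2, a roquin, fell by 0.15 with the call lost in the GC-corrected fit (-0.09). ZFP36 itself stood at 3.86, 3.27 and 3.62 FPKM in shControl and 4.07, 4.37 and 5.41 in shSLC1A5 (log2 fold change 0.35, edgeR adjusted p = 0.0549, or 0.034 without shSLC1A5 replicate 1).

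The receptors of these factors also moved both ways, with 4 of 8 tested genes higher and 3 lower (20.2% and 19.0% of all tested genes). Their median log2 fold change was 0.03, and the counts were the same in the GC-corrected fit. IL11RA, the receptor of IL11, rose from 1.09 ± 0.0105 to 1.78 ± 0.0981 FPKM (log2 fold change 0.68, edgeR adjusted p = 9.73e-04), opposite to its ligand. IL6ST, the gp130 subunit that IL6, IL11 and LIF share, stood at 110, 114 and 109 FPKM in shControl and 95.9, 97.4 and 94.4 in shSLC1A5, a log2 fold change of -0.22 (edgeR adjusted p = 1.54e-05). LIFR and OSMR, its partners for LIF and oncostatin M, rose by 0.20 and 0.24 on the log2 scale. IL6R was below the expression minimum at 163 to 226 counts in shControl and 508 to 525 in shSLC1A5, and in a fit with edgeR's own filter its log2 fold change was 1.19 (SE 0.158, adjusted p = 3.67e-04). PTGER4, a receptor of prostaglandin E2, fell from 7.58 ± 0.387 to 4.51 ± 0.168 FPKM (log2 fold change -0.76, edgeR adjusted p = 5.18e-06), and PTGFR, a prostaglandin F receptor, rose by 0.30. ACKR3, a scavenging chemokine receptor, fell by 0.59. The signalling receptors of CXCL8 and CCL2 had no counts in any shControl library: CXCR1 had 220, 4 and 0 counts in shSLC1A5, CXCR2 119, 0 and 0, and CCR2 36, 0 and 0. CSF1R, the receptor of CSF1, had 48 to 76 counts in all 6 libraries.

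JAK and STAT genes had 6 of 16 tested members higher and 5 lower (20.2% and 19.0% of all tested genes). Their median log2 fold change was 0.06. In the GC-corrected fit 3 were higher and 3 lower, and in its centred form 2 were higher and 4 lower, with a median of -0.02. CEBPD, a transcription factor of the acute phase that STAT3 induces, rose from 16.8 ± 1.34 to 32.6 ± 0.862 FPKM (log2 fold change 0.94, edgeR adjusted p = 1.38e-06), or 0.56 in the GC-corrected fit. BCL3, an atypical IκB protein, rose by 0.59, or by 0.26 in that fit. SOCS2, a feedback inhibitor, fell by 0.43, a call lost without shControl replicate 1 (edgeR adjusted p = 0.0578), and PTPN2, a phosphatase of this pathway, by 0.26. SOCS3, the main feedback inhibitor of gp130, stood at 18.9, 17.7 and 18.2 FPKM in shControl and 22.2, 19.5 and 21.8 in shSLC1A5 (log2 fold change 0.20, edgeR adjusted p = 0.0156), and it was not called without shControl replicate 2 (adjusted p = 0.055) or in the GC-corrected fit (0.03, adjusted p = 0.764).

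NF-κB subunits and kinases had 4 of 15 members higher and 1 lower (20.2% and 19.0% of all tested genes), with a median log2 fold change of -0.02, but 0 higher and 3 lower in the GC-corrected fit and in its centred form. The 3 called lower in the GC-corrected fit were RELB at -0.22, NFKB2 at -0.29 and IKBKG at -0.23 (edgeR adjusted p = 0.0442, 7.4e-05 and 0.0122), none of them called without the correction. TAB1, RELA and MAP3K14 were at 0.27, 0.13 and 0.13 and lost their calls in the GC-corrected fit (0.09, 0.03 and -0.04, with RELA also below 0 in its centred form), as did IKBKB (0.15 in both fits). Without shControl replicate 1 or 2 the adjusted p by edgeR was 0.0628 or 0.0558 for RELA. IKBKB was not called when any library other than shControl replicate 3 or shSLC1A5 replicate 2 was left out (edgeR adjusted p 0.069 to 0.152). NF-κB feedback and target genes fell in 12 of 31 cases and rose in 7 (39.2% of all tested genes were called), with a median of -0.05. In the GC-corrected fit 11 were lower and 5 higher, and in its centred form 12 and 3. BIRC3, an inhibitor of apoptosis and a target of this pathway like TNFAIP3, fell from 52.2 ± 0.585 to 38.7 ± 1.37 FPKM (log2 fold change -0.44, edgeR adjusted p = 5.20e-07). TRAF1 fell by 0.39 and TRAF6 by 0.54, and ZC3H12A, an RNase that degrades IL6 messages, rose by 0.44. NFKBIA, the inhibitor that NF-κB induces first, was at 33.2 ± 0.638 FPKM in shControl and 36.2 ± 1.06 in shSLC1A5 (log2 fold change 0.11, edgeR adjusted p = 0.0248). That call was lost in the centred form of the correction and when replicate 2 or 3 of either group was omitted (edgeR adjusted p up to 0.103). Known targets of NF-κB thus moved in both directions.

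Receptors and adaptors of IL1, TNF and Toll-like receptors had 7 of 15 members higher and 1 lower (20.2% and 19.0% of all tested genes), with a median log2 fold change of 0.17, but 3 higher and 2 lower in the GC-corrected fit and its centred form, with medians of 0.08 and 0.04. IRAK1, a kinase of this pathway, turned from 0.11 (edgeR adjusted p = 0.00487) to -0.14 in the GC-corrected fit (adjusted p = 0.00223). IL1R1, the IL1 receptor, rose by 0.31 and LTBR by 0.35. IL17RC and TRADD were at 0.39 and 0.29 and lost their calls in the GC-corrected fit (0.14 and 0.02, and -0.02 for TRADD in its centred form). Other cytokines and growth factors had 6 of 18 tested members higher and 4 lower (20.2% and 19.0% of all tested genes). Their median was 0.03, and 4 were higher and 3 lower in the GC-corrected fit. TNFRSF11B (osteoprotegerin), a secreted decoy receptor, rose from 168 ± 1.51 to 250.3 ± 4.22 FPKM (log2 fold change 0.56, edgeR adjusted p = 5.09e-09). INHBA, the activin A subunit, fell from 5.35 ± 0.251 to 3.04 ± 0.231 FPKM (log2 fold change -0.83, edgeR adjusted p = 2.57e-06), and BMP2 fell by 0.76. IL18 was at -0.60 with overlapping groups (edgeR adjusted p = 0.043), which rose to 0.106 in the GC-corrected fit and to 0.0874 to 0.192 when any library other than shControl replicate 3 or shSLC1A5 replicate 1 was left out. IL1A, IL1B and TNF, the usual inducers of the members, had means below 1 FPKM in both groups.

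Genes of prostaglandin synthesis, transport and breakdown had 5 of 11 tested members higher and 1 lower (20.2% and 19.0% of all tested genes). Their median log2 fold change was 0.13, and 6 were higher and 0 lower in the GC-corrected fit (5 and 0 in its centred form). AKR1B1, an aldo-keto reductase that can form prostaglandin F2, rose from 271.7 ± 7.51 to 343.4 ± 3.24 FPKM (log2 fold change 0.33, edgeR adjusted p = 4.49e-07). TBXAS1, thromboxane synthase, rose by 0.37 and AKR1C3 by 0.13. PTGES2 was at 0.36, or 0.07 with the call lost in the GC-corrected fit. PLA2G4A, which frees arachidonic acid, stood at 12.6 ± 0.382 FPKM in shControl and 13.3 ± 0.514 in shSLC1A5 (edgeR adjusted p = 0.231, or 0.0256 in the GC-corrected fit). PTGS1, the constitutive form of the enzyme, was under 0.1 FPKM in every library.

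AP-1 and C/EBP factors had 5 of 12 tested members higher and 3 lower (20.2% and 19.0% of all tested genes). Their median log2 fold change of 0.10 became -0.15 in the GC-corrected fit, where 0 were higher and 6 lower (0 and 7 in its centred form). ATF3 fell from 10.9 ± 0.208 to 6.94 ± 0.0695 FPKM (log2 fold change -0.66, edgeR adjusted p = 8.29e-07), MAFF by 0.44 and CEBPG by 0.28. CEBPB was at 0.35, or 0.05 with the call lost in the GC-corrected fit. Interferon-stimulated genes, tested as a neighbouring programme, fell in 8 of 20 cases and rose in 4 (19.0% and 20.2% of all tested genes). Their median was -0.04, and in the GC-corrected fit 8 were lower and 2 higher (9 and 1 in its centred form). IFIT2 fell by 0.38 and RSAD2 by 0.30, IFI6 rose by 0.33, and ISG15 was at 0.28, or 0.05 with the call lost in the GC-corrected fit.

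**Figure D4:**
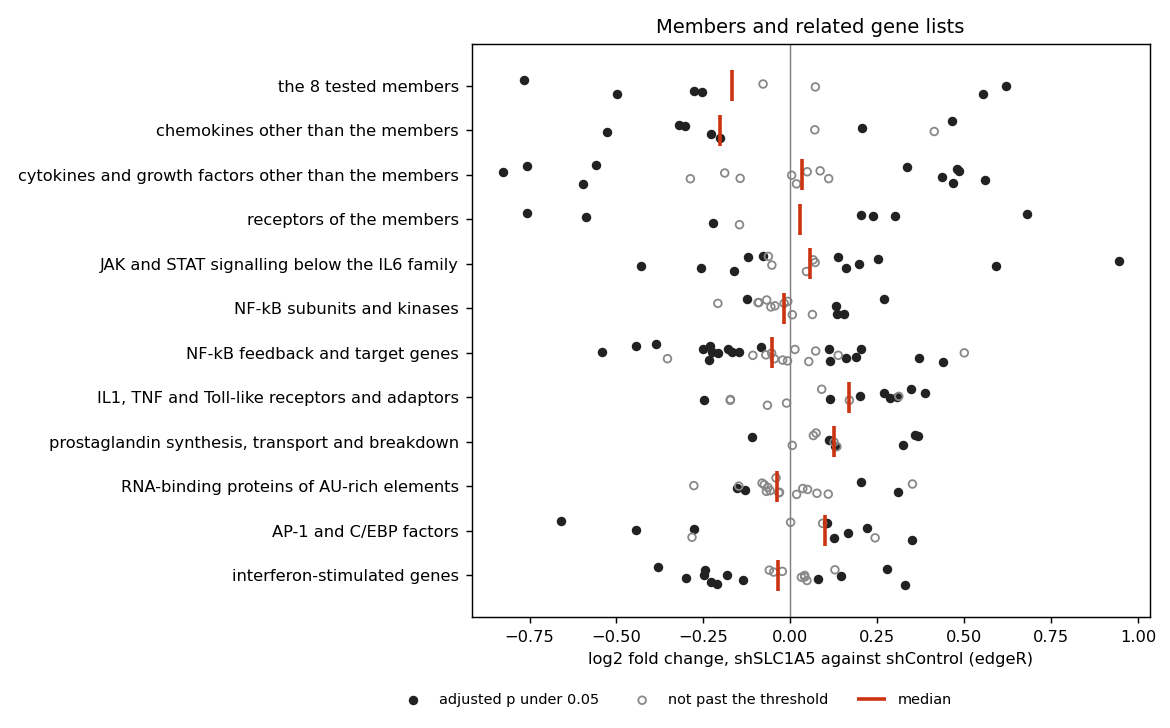
Log2 fold changes by edgeR of the 8 tested members and of the tested genes of 11 related lists, with a filled point for an adjusted p under 0.05, an open point for the rest and a red bar at the median. In this fit, without the GC correction, every list has called genes on both sides of 0, and the members' median of -0.17 lies near that of the other chemokines, -0.20.

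Summed levels of markers of B cells, endothelial cells and T and NK cells were higher in each shSLC1A5 library than in any shControl library. So were those of neutrophils and red cells, which were highest by far in shSLC1A5 replicate 1. Of the single neutrophil and red cell markers, 0 were higher in every shSLC1A5 library. The sum of monocyte and macrophage markers overlapped between the groups, though 7 of the 10 were highest in shSLC1A5 replicate 1. None of this was tested. Summed CPM of 14 neutrophil markers were 0.315 to 0.674 in shControl, 78.9 in shSLC1A5 replicate 1 and 1.09 and 1.19 in replicates 2 and 3. Between 8 and 10 of the 14 were at 0 in each shControl library and 1, MPO, was at 0 in shSLC1A5 replicate 1. Endothelial markers summed to 3.32 to 4.92 CPM in shControl and 11.4 to 12.7 in shSLC1A5. Of the 6, 4 were higher in every shSLC1A5 library, and CDH5 was at 0 in every shControl library. Most of the shControl sum was TIE1, at 2.34 to 3.41 CPM there and 2.09 to 2.48 in shSLC1A5. B cell markers summed to 10.8 to 11.9 and 19.6 to 26.9, with 7 of 9 higher in every shSLC1A5 library. Nearly all of the shControl sum was CD22, at 10.5 to 11.7 CPM there and 8.54 to 10.1 in shSLC1A5. IGHM and MS4A1 were at 0 in shControl and reached 5.58 to 10.3 and 1.33 to 2.37 CPM in shSLC1A5. Sums of 10 monocyte and macrophage markers, mostly from CD68 and VCAN, were 154 to 159 and 156 to 180. Among them, LYZ had 11 to 26 counts in shControl and 508, 0 and 13 in shSLC1A5. CD14 had 14 to 23 and then 121, 15 and 21, while CSF1R, CD68 and VCAN were not highest in replicate 1. The 6 T and NK cell markers summed to 0.048 to 0.189 and 0.373 to 0.734, with CD3E at 0 throughout. The 4 red cell markers had 0 to 6 counts in shControl and 779, 20 and 7 in shSLC1A5. Of the 779 counts, 773 were from ALAS2. HBA1 and HBA2 had 0 counts in that library and 9 and 11 in shSLC1A5 replicate 2. The 10 glial and glioma markers summed to 4623 to 4658 CPM in shControl and 4113 to 4218 in shSLC1A5. VIM and CD44, each lower in CPM in every shSLC1A5 library, made up nearly all of these sums. NES, CHI3L1 and CDKN2A, 3 of the 10, were higher in CPM in every shSLC1A5 library.

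Neutrophils, endothelial cells and B cells can themselves make several of the members. Without shSLC1A5 replicate 1, the log2 fold changes were -0.47 for CXCL8, -0.26 for IL6, -0.76 for IL11, 0.55 for CSF1, 0.61 for PTGS2 and -0.27 for TNFAIP3, all still called. The 11 counts of CXCL1 and most of those of CXCR1, CXCR2 and CCR2 came from that library. Endothelial and B cell transcripts were present in all 3 shSLC1A5 libraries, and their part in the results was not tested. In RNA from whole cultures, fewer cells that express a gene and less of its RNA per cell cannot be told apart.

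**Figure D5:**
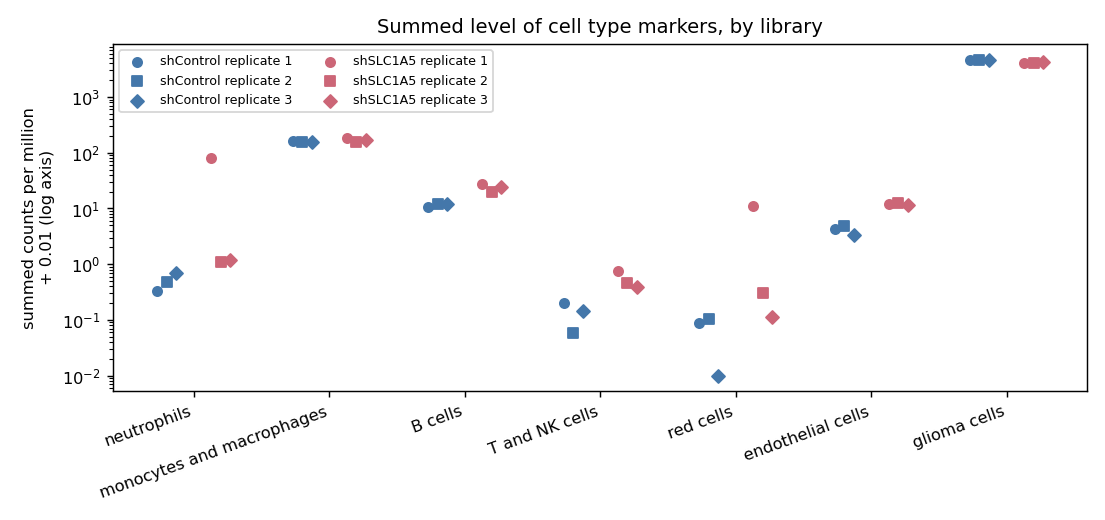
Summed CPM plus 0.01 (log axis) of the markers of 7 cell types, with a symbol for each library. Neutrophil markers reach 78.9 CPM in shSLC1A5 replicate 1, where the red cell sum, nearly all from ALAS2, is also highest. B cell and endothelial sums are higher in all 3 shSLC1A5 libraries.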

How the data were processed

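Per the labels' protocols, messenger RNA was selected with oligo(dT) and sequenced as paired reads of 150 bases. The submitters' processing notes list fastp, HISAT2 and StringTie without versions or roles. Neither the strand setting nor the treatment of shared reads is given in the sources used here. Per the file headers, the authors deposited read counts and FPKM per gene, and the counts were taken as raw. Columns were assigned by group and replicate number. GENCODE 29 holds 34674 of the 35750 gene IDs.

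Genes averaging 1 FPKM or more were tested with edgeR 4.0.16 in R 4.3.3 (TMM scaling, group alone, quasi-likelihood test, Benjamini-Hochberg over all tested genes, adjusted p under 0.05), after the scripts were tested on simulated data. The SE is the log2 fold change divided by the square root of F. In the GC-corrected fit, each library's deviation in log2 CPM was smoothed by loess (span 0.3) on GC content and then length of the longest GENCODE 29 transcript, available for 99.65% of tested genes, and used as an offset. An earlier form of this correction that counted the TMM shift a second time was discarded as an error. The uncentred form was then preferred to the centred one after the values of both, and an earlier split of calls in these data, were known, so it is not an independent choice, and the centred form is given beside it. Alternatives were DESeq2 1.42.0, limma 3.58.1 on log2(FPKM + 1) and log2(FPKM + 0.1), other scalings and filters, a replicate block and leaving out each library. Per gene, replicate libraries varied 9.82 to 16.7 times as much as counting noise, so none holds the same library counted again, which does not show that they came from separate cultures.

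The members and lists were chosen with earlier results of these data known. Named genes are the members, SLC1A5 and, per list, up to 4 genes past the threshold by size of change. CXCL10, CX3CL1, CCL5, CCL22, IL24, IL6ST, LIFR, OSMR, IL6R, SOCS3, NFKBIA, PLA2G4A, ZFP36, RELB, NFKB2, IKBKG and IRAK1 were named after their values were seen. The same holds for IL1A, IL1B, TNF, PTGS1 and genes given only as counts or CPM.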

Additional observations from a re-analysis of the deposited data

How the results depend on the processing

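The count of members past the threshold was 6 under every scaling, test, filter, block and left-out library run, except for 8 in the GC-corrected fit, its centred form and its form with the replicate block, and 5 with a mean of at least 5 FPKM, where IL11 is not tested. Over all genes, 4641 were called, 3094 in the GC-corrected fit, 3394 in its centred form (added after the data were seen), 3863 to 4081 with a library left out, 4470 with the replicate block and 2988 with the block and the GC correction. Deviations of same-numbered libraries correlated at -0.151, 0.0356 and -0.0343, so no effect shared by replicate number was seen. This cannot show whether the samples were handled in pairs, which the labels do not state. Single genes were followed under the alternatives for the tested members and the list genes named by rule. Of these 925 values, 850 kept their direction and their side of the threshold and 64 lost their call. A call was gained by 6 (LIF and CCL2 in the 3 GC-corrected forms), and 5 reversed. Genes named after their values were seen are outside this tally. Among those, IRAK1 reversed and RELB, NFKB2, IKBKG and PLA2G4A gained a call in the GC-corrected fit, as given above.

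Counts called in lists moved by over 1.5 times as follows, and the cause was not tested. NF-κB subunits and kinases went from 5 (4 higher, 1 lower) to 3 with limma at either pseudocount, at a mean of at least 5 FPKM and in the 3 GC-corrected forms (0 higher and 3 lower in the fit and its centred form), to 2 with no filter, and to between 2 and 6 with a library left out (2 without shControl replicate 2, 3 without shControl replicate 1 or shSLC1A5 replicate 3). JAK and STAT genes went from 11 to 6 in the GC-corrected fit and its centred form and 4 with the block, and IL1, TNF and Toll-like receptors from 8 to 5 in all 3 forms. Other cytokines went from 10 to 5 at a mean of at least 5 FPKM, AP-1 and C/EBP factors from 8 to 4 with no filter and 5 with the block and the GC correction, and proteins of AU-rich elements from 4 to 8 with DESeq2. MAP3K14 reversed to -0.0357 in the GC-corrected fit, -0.0352 with the block and -0.0698 in the centred form, where RELA came to -0.0085 and TRADD to -0.0182. Depth limits CXCL1 and CXCL2, for which no fold change was given.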

Other observations

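Outside the comparisons above, CCL22, a chemokine of dendritic cells and B cells, had 0 counts in all 3 shControl libraries and 55, 47 and 49 in shSLC1A5. IL24, a cytokine of the IL10 family that was below the expression minimum, had 129, 96 and 114 counts in shControl and 64, 38 and 76 in shSLC1A5, with an edgeR adjusted p of 0.0207 under edgeR's own filter. The platelet chemokine PPBP had 102 counts and PF4 18 in shSLC1A5 replicate 1, and both were at 0 in the other 5 libraries.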
